A study of Homo sapiens with 9 samples.

Results

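The nephron lineage transcription factors described here are 8 genes, PAX2, PAX8, HNF4A, HNF4G, LHX1, WT1, EMX2 and NFIA, found by gene name among the 57773 features of a quantile-normalized RNA sequencing table. ACHN, an established human renal cell carcinoma line, was the source of all 9 libraries. KO#1 and KO#2 cells carried CRISPR/Cas9 and either of 2 independent guides against ELOVL5, the elongase of polyunsaturated fatty acids, and sgControl cells carried a control guide. Each group had 3 libraries. The labels do not say whether the edited cells were single clones or pools, nor whether the libraries of a group came from separate cultures. The p-values therefore measure only the spread between these libraries, which may be technical. The series concerns the part of ELOVL5 in growth and invasion of renal carcinoma cells.

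PAX2 and PAX8 are paired-box factors that act early in the intermediate mesoderm and the ureteric bud, and PAX8 stays on in mature tubules and in most renal carcinomas. LHX1, a LIM homeodomain factor, is needed for the first nephric duct and for patterning of the renal vesicle. EMX2 acts in the ureteric bud, WT1 in the cap mesenchyme and then in podocytes, and HNF4A in the differentiation of proximal tubule cells. HNF4G is the close relative of HNF4A, and NFIA, a nuclear factor I protein, is required for normal ureter and kidney development.

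Of the 8 genes, 5 were transcribed at levels that could be tested (PAX2, PAX8, HNF4G, LHX1 and NFIA), and 3 were silent or nearly so (HNF4A, WT1 and EMX2). PAX8 was the most abundant, and NFIA showed the widest difference between groups. NFIA had a mean signal of 32.1 in KO#1 cells, 151 in KO#2 cells and 189 in sgControl cells. PAX2 and PAX8 were lower in every KO#1 library than in any sgControl library, and LHX1 had higher means in both knockout groups than in sgControl, with overlapping libraries. None of the 5 passed the test in any comparison when all 9 libraries were fitted.

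The table that the authors deposited gives a signal per gene, made from total counts by quantile normalization, so every library holds the same sorted values with a total of 8625043.6. Signal is thus a rank-based level, and the raw depth of a library is not in the table. Reads could nevertheless be read back from the order of tied features up to a signal of 356.1. KO#2 replicate 1 stood apart. A signal of 100 rested on 16 reads there and on 79 to 145 reads in the other 8 libraries, and 10257 features had at least 10 reads there, against 12421 to 13254 in the others. Over all features tested it correlated at 0.672 and 0.737 with the rest of its group, while pairs of libraries within KO#1 and within sgControl had correlations of 0.958 to 0.978. The members' tests of KO#2 against sgControl are given with and without it, as are most counts of the gene lists and part of the other tests. ELOVL5, the targeted gene, had a signal of 805, 1345 and 1016 in KO#1 libraries, 434, 1805 and 910 in KO#2 libraries and 1999, 2713 and 2063 in sgControl libraries. The message was lower in every knockout library than in any sgControl library, with a log2 fold change of -1.11 in KO#1 and -1.32 in KO#2. With all libraries neither passed (limma with Benjamini-Hochberg adjustment, adjusted p = 0.383 for KO#1 and 0.24 for KO#2). Without KO#2 replicate 1, KO#1 passed (limma adjusted p = 0.0314) and KO#2 was at -0.80 and did not (limma adjusted p = 0.162). With library weights both passed (limma adjusted p = 0.0048 for KO#1 and 0.0346 for KO#2). A guide can disrupt a protein without removing its message. The epithelial keratin KRT8 had a signal of at least 7195 in all libraries and the receptor MET of at least 1199. CA9, the hypoxia-induced carbonic anhydrase, was listed at 0 in all. MME, from the same set of renal epithelial markers, was at 0 in KO#1 and sgControl libraries and at most 1.44 in KO#2. CDH1, the epithelial cadherin, had a signal of 319 to 454 in KO#1 and 371 to 716 in KO#2, against 3831 to 6183 in sgControl libraries, and passed with either guide (log2 fold change -3.79 in KO#1, limma adjusted p = 0.000335, and -3.32 in KO#2, limma adjusted p = 0.000765). Without KO#2 replicate 1 it passed as well (limma adjusted p = 1.65e-05 in KO#1 and 0.000188 in KO#2). Other renal epithelial markers did not all fall. KRT18 had a signal of 3869 to 6332 in KO#1 and 6262 to 12200 in KO#2, against 2570 to 4177 in sgControl libraries. In the same order, EPCAM was at 43.4 to 69.2 and 93.7 to 349, against 4.89 to 5. CDH2 was at 1496 to 1553 and 481 to 1175, against 685 to 1106. KRT19 was at 4554 to 4676 and 3751 to 11020, against 6423 to 12500. KRT7 was at 216 to 476 and 249 to 699, against 191 to 258. VIM was at 9749 to 13070 and 5660 to 8774, against 8641 to 10070. SOX10 and CD3E, markers of neural crest and T cells, were also listed at 0 throughout. Over 19 markers of other cell types, the summed signal was 410 to 747 in KO#1, 388 to 1824 in KO#2 and 333 to 635 in sgControl libraries, with 8, 9 and 10 markers at 0 in all libraries of KO#1, KO#2 and sgControl. The largest part of that sum came from ACTA2, with means of 556.5 in KO#1, 861.7 in KO#2 and 411.1 in sgControl cells. ACTA2 did not pass with either guide (limma adjusted p = 0.952 in KO#1 and 0.531 in KO#2). The part of such signal in the results was not tested. In bulk RNA, fewer cells of a type and less RNA per cell cannot be told apart.

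Levels can be compared between genes only per length. Per kilobase of exon, in sgControl cells PAX8 had a mean signal of 427 and PAX2 of 137. LHX1 had 31.2, HNF4G 29.1 and NFIA 17.4 on the same scale. PAX8 thus stood well above the other tested factors, PAX2 came next, and the order of LHX1 and HNF4G lies within the spread of their libraries. HNF4A had 0.0203 per kilobase, from a single read.

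The promoters of the most abundant of these genes, of a silent one and of the one with the widest difference between groups are shown, from 250 bases before to 50 bases after the start, as RefSeq gives them on GRCh38.p14. Capitals mark matches on either strand to CCAAT, to the GC box GGGCGG, to GTTAAT and to TTGGC, one arm of the motif of nuclear factor I. CCAAT and TTGGC can overlap, as in ATTGGC. PAX8 lies at chr2:113278872-113279171 on the minus strand, HNF4A at chr20:44400989-44401288 on the plus strand and NFIA at chr1:61076977-61077276 on the plus strand. For NFIA and HNF4A other starts exist in the table and are not shown.
PAX8: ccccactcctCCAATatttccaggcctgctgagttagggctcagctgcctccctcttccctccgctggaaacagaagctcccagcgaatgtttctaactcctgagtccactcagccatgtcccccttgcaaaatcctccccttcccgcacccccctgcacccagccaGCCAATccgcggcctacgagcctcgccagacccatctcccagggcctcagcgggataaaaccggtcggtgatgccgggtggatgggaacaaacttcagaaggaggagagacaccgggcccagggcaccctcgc
HNF4A: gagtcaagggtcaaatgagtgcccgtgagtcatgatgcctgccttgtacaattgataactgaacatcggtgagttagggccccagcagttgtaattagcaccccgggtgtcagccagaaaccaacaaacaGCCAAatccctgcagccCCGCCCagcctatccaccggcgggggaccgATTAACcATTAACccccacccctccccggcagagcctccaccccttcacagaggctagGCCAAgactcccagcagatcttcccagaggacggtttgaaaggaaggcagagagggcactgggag
NFIA: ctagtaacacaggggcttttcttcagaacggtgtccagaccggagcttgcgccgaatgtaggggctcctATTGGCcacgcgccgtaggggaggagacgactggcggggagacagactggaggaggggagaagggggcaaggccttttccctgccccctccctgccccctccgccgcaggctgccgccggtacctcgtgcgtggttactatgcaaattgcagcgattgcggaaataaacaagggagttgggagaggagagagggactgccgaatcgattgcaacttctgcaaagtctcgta
The PAX8 window holds CCAAT at 2 places, and 34.6% of the 35116 promoters in the RefSeq table hold it at least once. The HNF4A window holds GTTAAT at 2 places, on the strand opposite to the gene, and 6.88% of all promoters hold that word. TTGGC is in all 3 windows and in 45.6% of all promoters, and GGGCGG is in the HNF4A window and in 45.0% of all. The matches depend on the start shown. The windows of NFIA and HNF4A that are not shown held no TTGGC and no GTTAAT, and each held GGGCGG. These matches describe letters only. Of the 8 genes, 6 had a promoter in the table.

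PAX8 was read at high levels in every library, with the lowest mean in KO#1. Its signal was 1898, 1994 and 2558 in KO#1 libraries, 3684, 1673 and 2861 in KO#2 libraries and 3670, 2813 and 2991 in sgControl libraries. All 3 KO#1 libraries lay below all 3 sgControl libraries, whereas the KO#2 libraries spread over and beyond the range of both. The means were 2150 ± 357 in KO#1, 2739 ± 1011 in KO#2 and 3158 ± 452 in sgControl cells (SD, n = 3 each). The log2 fold change was -0.56 in KO#1 against sgControl (SE 0.335, adjusted p = 0.648) and -0.27 in KO#2 against sgControl (adjusted p = 0.727), by limma with Benjamini-Hochberg adjustment. Neither passed. With KO#2 replicate 1 left out, the adjusted p by limma was 0.158 for KO#1 and 0.271 for KO#2, and the log2 fold change of KO#2 became -0.52.

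PAX2 followed the same order of groups. Its signal was 584, 585 and 469 in KO#1 libraries, 1200, 275 and 673 in KO#2 libraries and 938, 773 and 855 in sgControl libraries. KO#1 libraries again lay below every sgControl library, and KO#2 held both the highest and the lowest library of all 9, replicate 1 being the highest. Means were 546 ± 66.5 in KO#1, 716 ± 464 in KO#2 and 855 ± 82.3 in sgControl cells (SD, n = 3 each). Without replicate 1, the KO#2 mean was 474, below the KO#1 mean. The log2 fold change was -0.65 in KO#1 (SE 0.464, adjusted p = 0.758) and -0.49 in KO#2 (adjusted p = 0.65), each against sgControl by limma with Benjamini-Hochberg adjustment. Without KO#2 replicate 1, the KO#2 value was -0.98 (limma adjusted p = 0.103), and the mean of both guides against sgControl was -0.82 (limma adjusted p = 0.0669). PAX2 in KO#1 passed in 2 of 19 alternative settings, those with library weights (limma adjusted p = 0.0308) and with the KO#1 and sgControl libraries alone (limma adjusted p = 0.0346).

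The 2 PAX genes moved together between libraries, with a Pearson correlation of 0.864 on the log2 scale over the 9 libraries and of 0.823 without KO#2 replicate 1. The ratio of PAX8 to PAX2 was 3.25, 3.41 and 5.45 in KO#1 libraries, 3.07, 6.09 and 4.25 in KO#2 libraries and 3.91, 3.64 and 3.50 in sgControl libraries. The sgControl ratios fell inside the range of either knockout group. Both genes encode a paired box of nearly the same protein sequence. The DNA that separates them is shown for 60 coding bases around their longest shared run, from GENCODE v29 transcripts. These bases begin in the box and run past its end, and capitals mark the 13 bases that differ.
PAX2: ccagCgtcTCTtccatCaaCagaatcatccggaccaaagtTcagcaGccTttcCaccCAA
PAX8: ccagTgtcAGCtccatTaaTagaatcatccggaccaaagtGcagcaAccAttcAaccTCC
The longest run that the transcripts of the 2 genes share is 20 bases, shorter than the 36-base reads. No 36-base word of PAX2 or of PAX8 occurs in a transcript of another gene on the same strand. On the opposite strand, 508 of 7577 words of PAX8 (6.71%) are those of its antisense partner PAX8-AS1, and the handling of strand in counting is not given in the sources used here. PAX8-AS1 itself had 5, 3 and 7 reads in KO#1, 1, 2 and 14 in KO#2 and 3, 10 and 8 in sgControl libraries, too few to be tested.

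**Figure D1:**
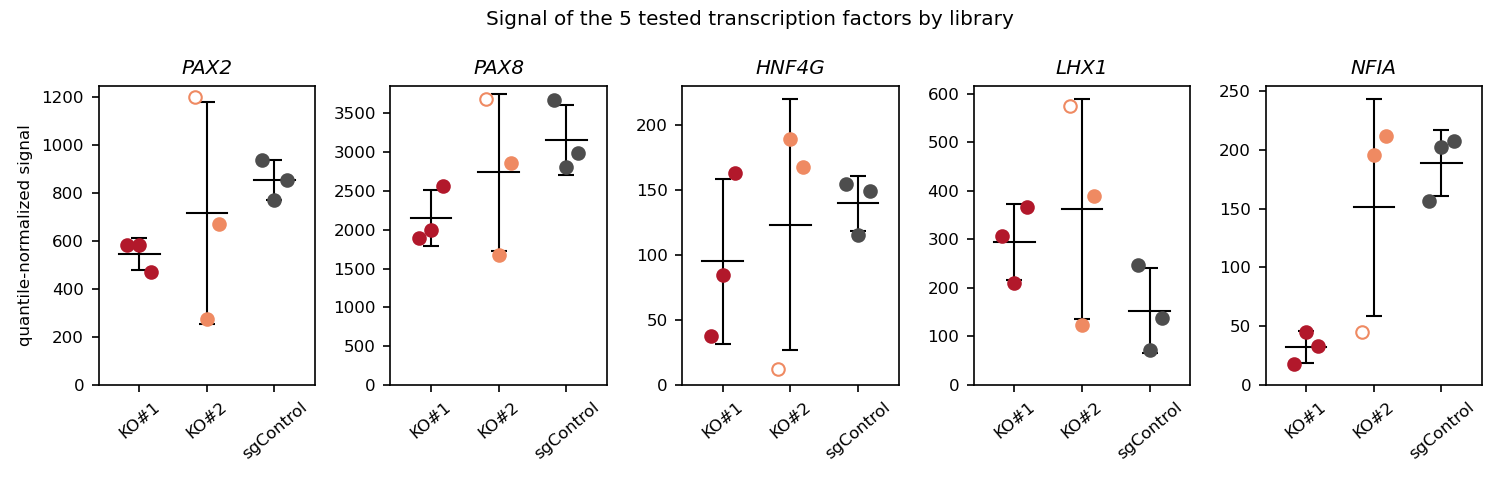
Quantile-normalized signal (vertical axes, no unit) of the 5 tested transcription factors in KO#1, KO#2 and sgControl libraries; points are libraries, the open point is KO#2 replicate 1, and bars are mean ± SD of 3 libraries. NFIA lies at 17.9 to 45.1 in KO#1 against 156 to 208 in sgControl, and the open point is the highest or lowest KO#2 library for every gene.

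NFIA was low in all 3 KO#1 libraries. Its signal was 17.9, 45.1 and 33.3 in KO#1 libraries, 45.1, 196 and 212 in KO#2 libraries and 156, 202 and 208 in sgControl libraries. KO#1 did not overlap sgControl, and KO#2 replicate 1 shared the value of KO#1 replicate 2 while the other KO#2 libraries lay within or just above the sgControl range. Means were 32.1 ± 13.7 in KO#1, 151 ± 92.0 in KO#2 and 189 ± 28.5 in sgControl cells (SD, n = 3 each), so KO#2 and sgControl did not differ beyond their spread. The signals rest on 22, 52 and 50 reads in KO#1, 8, 157 and 257 in KO#2 and 122, 281 and 184 in sgControl libraries. The 8 reads of KO#2 replicate 1 have an exact 95% Poisson interval of 3.45 to 15.8 reads, which covers counting error only, so its signal is poorly fixed.

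The log2 fold change of NFIA in KO#1 against sgControl was -2.60 (SE 0.596), or 0.165 times the sgControl level, with a limma p of 0.00127 and a Benjamini-Hochberg adjusted p of 0.0527, just outside the threshold of 0.05. Without KO#2 replicate 1 the same fold change had an SE of 0.326 and a limma adjusted p of 0.000956. It passed in 6 of 19 alternative settings, over which the limma adjusted p ran from 6.57e-05 to 0.256. KO#2 against sgControl gave -0.60 (limma adjusted p = 0.67), and 0.12 without replicate 1 (limma adjusted p = 0.882). The difference between the guides was 2.00 on the log2 scale (KO#2 minus KO#1, limma adjusted p = 0.748), and 2.72 without replicate 1 (limma adjusted p = 0.0301), where 13 features or 0.1% of those tested passed in that comparison. The mean of both guides against sgControl was -1.60 (limma adjusted p = 0.161), and -1.24 without replicate 1 (limma adjusted p = 0.0197). No 36-base word of NFIA occurs in another gene on either strand. For the 20 tested genes on each side of NFIA along its chromosome, the median deviation from each gene's own mean was taken per library. Averaged by group on the log2 scale, that median differed from sgControl by 0.00 in KO#1 and by -0.29 in KO#2.

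**Figure D2:**
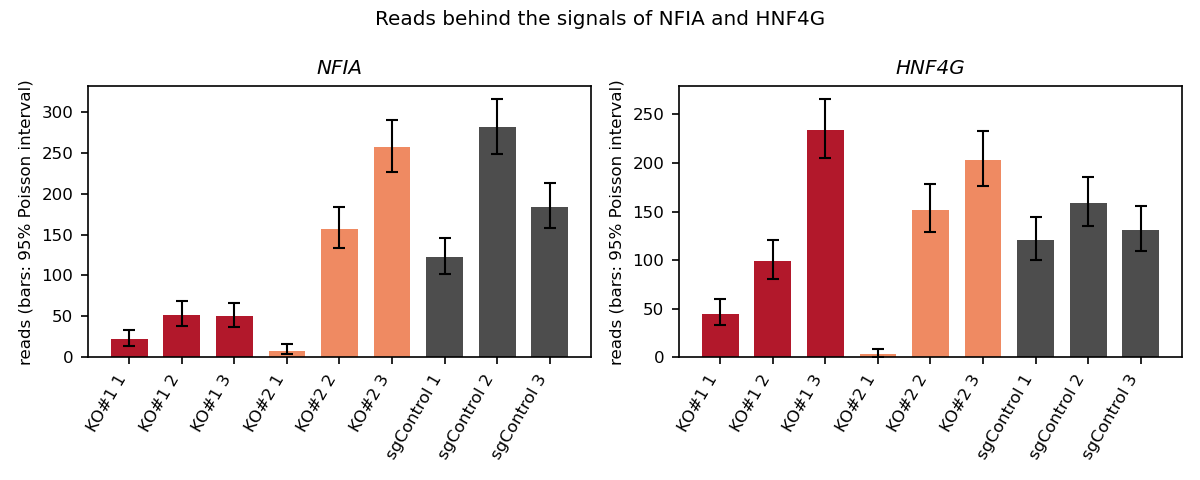
Reads read back from the table (vertical axes) for NFIA and HNF4G in each library, with exact 95% Poisson intervals as bars. KO#2 replicate 1 holds 8 reads of NFIA and 3 of HNF4G, whereas the other KO#2 libraries hold 157 and 257 reads of NFIA and 152 and 203 of HNF4G.

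None of the other nuclear factor I genes, named as the whole family of NFIA, passed with all libraries. NFIB, NFIC and NFIX had mean signals equal to 1404, 1497 and 1206 in KO#1, to 1154, 1640 and 1257 in KO#2, and to 1829, 2709 and 1421 in sgControl cells. Their log2 fold changes in KO#1 against sgControl were -0.38, -0.86 and -0.24, all smaller in size than that of NFIA. NFIC passed without KO#2 replicate 1, at -0.86 in KO#1 (limma adjusted p = 0.0168) and -1.30 in KO#2 (limma adjusted p = 0.00575).

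LHX1 had higher mean levels with both guides. Its signal was 307, 210 and 366 in KO#1 libraries, 575, 123 and 390 in KO#2 libraries and 247, 72.8 and 138 in sgControl libraries. The groups overlapped, since sgControl replicate 1 exceeded 1 library of each knockout group. Means were 294 ± 79.1 in KO#1, 363 ± 227 in KO#2 and 152 ± 87.9 in sgControl cells (SD, n = 3 each), and each pair of means differed by less than the sum of its SDs. On the log2 scale the fold change was 1.08 in KO#1 (SE 0.603, adjusted p = 0.609) and 1.15 in KO#2 (adjusted p = 0.444), each against sgControl by limma with Benjamini-Hochberg adjustment. Without KO#2 replicate 1, these were 1.08 (limma adjusted p = 0.202) and 0.69 (limma adjusted p = 0.517). Its sign stayed positive against sgControl in all 19 alternatives for either guide.

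LHX5, the closest relative of LHX1 and best known from the developing brain, was present in both knockout groups and had 0 reads in every sgControl library. It had a signal of 24.4, 20.7 and 18.2 in KO#1 libraries and of 18.2, 6.67 and 10.8 in KO#2 libraries, from 30, 24 and 27 reads in KO#1 and from 4, 5 and 14 reads in KO#2. It passed with either guide (limma adjusted p = 0.00393 in KO#1 and 0.0125 in KO#2), but in KO#2 no longer when sgControl replicate 1 (limma adjusted p = 0.0619) or replicate 3 (limma adjusted p = 0.0573) was left out. With KO#2 replicate 1 left out, the limma adjusted p was 0.000276 in KO#1 and 0.00463 in KO#2. The transcripts of the pair share a run of 53 bases in the homeobox, longer than a read. A read wholly within it matches both genes, although its mate may lie outside. The run is in capitals since all of its bases are shared.
LHX1 and LHX5: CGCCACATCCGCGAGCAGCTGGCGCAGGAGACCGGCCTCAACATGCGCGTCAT
That run gives 18 of the 4908 36-base words of LHX1 (0.367%). A further 333 words of LHX1 (6.79%) lie opposite AC243773.1, a gene on the other strand. The sgControl libraries held 196, 97 and 121 reads of LHX1 and 0 of LHX5. How many LHX5 reads came from the shared run was not tested.

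HNF4G, the one HNF4 gene transcribed here, varied most, relative to its mean, within both knockout groups. Its signal was 37.2, 84.8 and 163 in KO#1 libraries, 12.2, 189 and 168 in KO#2 libraries and 155, 116 and 149 in sgControl libraries. Both knockout groups reached above and below the sgControl libraries. Means were 95.2 ± 63.8 in KO#1, 123 ± 96.6 in KO#2 and 140 ± 21.2 in sgControl cells (SD, n = 3 each), so that each pair of means differed by less than the sum of its SDs. The reads were 45, 99 and 234 in KO#1, 3, 152 and 203 in KO#2 and 121, 159 and 131 in sgControl libraries. The KO#1 spread is thus far wider than counting error, and the low KO#2 value rests on 3 reads. The log2 fold change was -0.78 in KO#1 (SE 0.919, adjusted p = 0.949) and -0.89 in KO#2 (adjusted p = 0.679), each against sgControl by limma with Benjamini-Hochberg adjustment. The KO#2 value turned to 0.36 without replicate 1 (limma adjusted p = 0.725). Of the 4826 36-base words of HNF4G, 72 (1.49%) also occur in other genes on the same strand.

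HNF4A, WT1 and EMX2 gave no level in any group. HNF4A had 1 read in sgControl replicate 2, a signal of 0.444, and 0 reads in the other 8 libraries. EMX2 was listed at 0 in all 9 libraries. WT1 was listed at 0 except for a signal of 0.778 in KO#2 replicate 1, which the read-back put at 0 reads. A count of 0 has an exact 95% Poisson upper bound of 3.69 reads, so low transcription is not detectable at this depth. The antisense or divergent genes HNF4A-AS1 and EMX2OS were at 0 throughout, and WT1-AS had 0 reads in every library.

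**Figure D3:**
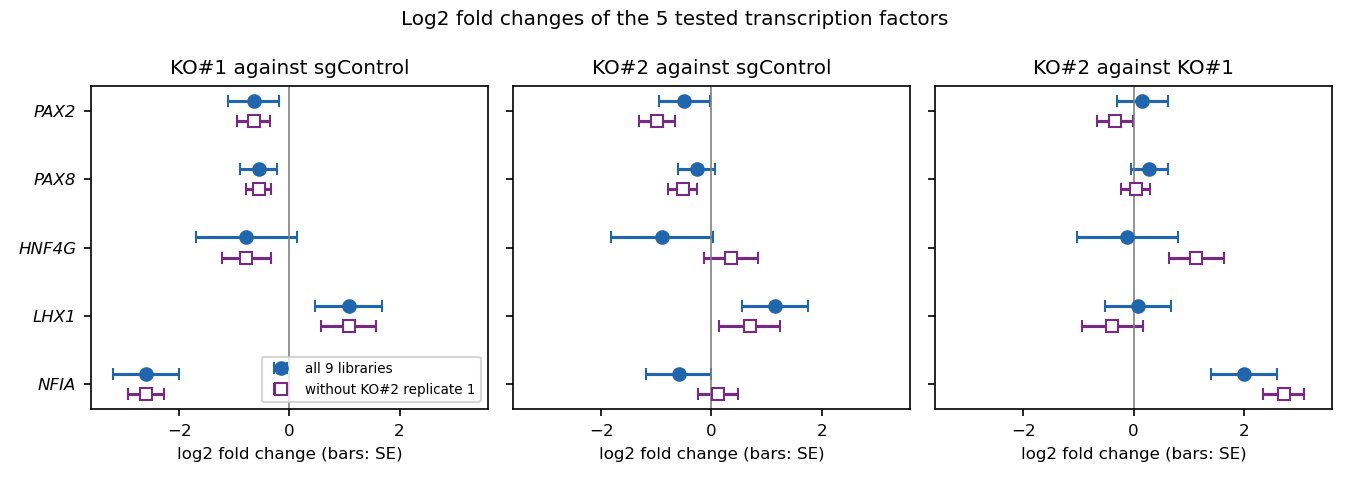
Log2 fold changes (horizontal axes) of the 5 tested transcription factors in 3 comparisons, with SE as bars; circles use all 9 libraries and squares leave out KO#2 replicate 1. NFIA stands at -2.60 in KO#1 against sgControl under both, and HNF4G and NFIA change sign in KO#2 against sgControl without that library.

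Read together over all 9 libraries, 0 of the 5 tested members passed in KO#1 against sgControl, where 2.33% of the 12985 features tested did. It was 0 of 5 in KO#2 against sgControl, where 2.04% did, 0 of 5 for the mean of both guides, where 3.1% did, and 0 of 5 for KO#2 against KO#1, where 0% did. At an unadjusted limma p under 0.05 the members numbered 1 of 5 in KO#1, 0 of 5 in KO#2, 1 of 5 for the mean and 1 of 5 between the guides, NFIA each time. Over all features, 1467, 1757, 1847 and 529 reached that level in the same order of comparisons. When KO#2 replicate 1 was left out, 1 of 5 passed in KO#1, NFIA, where 12.3% of features did, and 0 of 5 in KO#2, where 8.02% did. For the mean of both guides without that library it was 1 of 5, again NFIA, where 14.6% did. In KO#1, 3 of 5 members (PAX2, PAX8 and NFIA) had all libraries below those of sgControl, as did 15.9% of features, and 0 of 5 had all above, as did 18.2%. All 5 overlapped in KO#2 against sgControl, where 8.34% of features were lower without overlap and 9.62% higher, and between the guides, where 4.49% were lower and 4.45% higher. The median log2 fold change of the 5 was -0.65 in KO#1 and -0.49 in KO#2, beside medians over all features of 0.03 in KO#1 and -0.01 in KO#2. With KO#2 replicate 1 left out, the KO#2 median of the 5 turned to 0.12, beside 0.03 over all features, and that of KO#1 stayed as it was. KO#1 and KO#2 were set against the same sgControl libraries, so the values of the guides are not independent.

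Across the 9 libraries the 5 factors did not follow 1 pattern. Apart from the PAX pair, HNF4G and NFIA had a correlation of 0.61 (0.729 without KO#2 replicate 1), LHX1 and NFIA of -0.56 (-0.52 without it), and PAX2 and NFIA of 0.0227 (0.197 without it). These describe libraries that share groups, with no test. The genes most like each factor over the 9 libraries, among features with a mean at or above the median, were WIZ (0.977), ORAI2 (0.974) and SMARCC2 (0.974) for PAX2, and CTIF (0.97), KIAA0556 (0.963) and C6orf132 (0.962) for PAX8. For HNF4G they were KLF3 (0.99), FAM60A (0.989) and ZC3H12C (0.985), and for LHX1 they were CLSTN3 (0.959), PIK3CD (0.959) and PREX1 (0.959). For NFIA they were PDE4D (0.974), ACSL1 (0.925) and LPIN1 (0.909). PDE4D, a phosphodiesterase of cyclic AMP, kept a correlation of 0.973 with NFIA without KO#2 replicate 1.

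Among 54 other transcription factors of the nephron, 31 were tested, and SALL1 was the 1 that passed. SALL1, a zinc finger factor of the cap mesenchyme, had 0 reads in all KO#1 and all KO#2 libraries, against 93, 131 and 79 reads in sgControl libraries. Its signal was 0 in those 6 libraries and 101 ± 13.8 in sgControl cells (SD, n = 3), with a limma adjusted p of 0.000335 in KO#1 and 0.000421 in KO#2, and of 1.92e-05 and 6.08e-05 without KO#2 replicate 1. SALL1 was thus read in the sgControl cells and in none of the edited libraries. The list had 0 higher and 1 lower of 31 with either guide, where 1.36% of all features were higher and 0.97% lower in KO#1, and 1.17% higher and 0.87% lower in KO#2. It had a median log2 fold change of 0.01 in KO#1 and 0.07 in KO#2 (0.02 without KO#2 replicate 1). Without that library it had 7 higher and 2 lower in KO#1, beside 5.99% and 6.27% of all features, and 1 higher and 4 lower in KO#2, beside 3.88% and 4.14%. TFAP2A, an AP-2 factor and named after its values were seen, was among the lower ones with either guide there, at -1.29 in KO#1 (limma adjusted p = 0.0148) and -1.44 in KO#2 (limma adjusted p = 0.0199). SIX4, also named after its values were seen, was higher with either guide there. It was at 1.03 in KO#1 (limma adjusted p = 0.0329) and 1.12 in KO#2 (limma adjusted p = 0.0493).

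**Figure D4:**
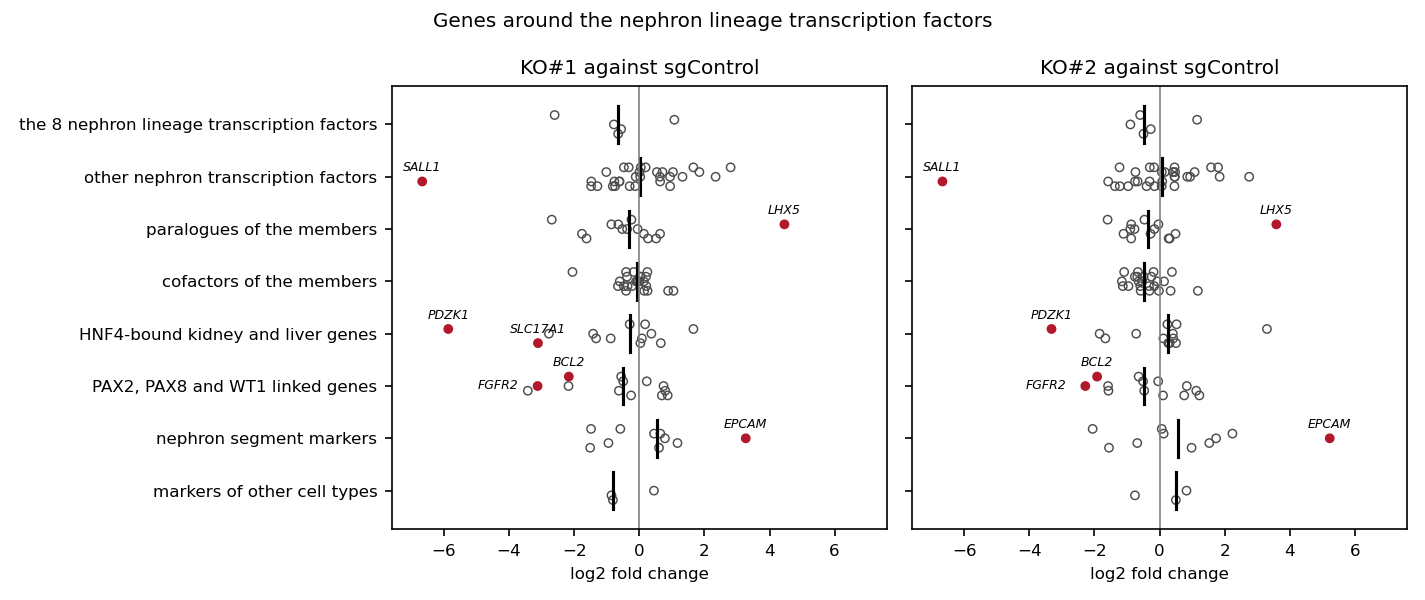
Log2 fold changes (horizontal axes) of the tested genes of each list in KO#1 and KO#2 against sgControl; each point is a gene, filled and named where it passed at an adjusted p under 0.05, and vertical bars are list medians. Of the 31 other nephron transcription factors only SALL1 passed; the positions of SALL1 and LHX5, each listed at 0 in a whole group, depend on the pseudocount of 1.

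Genes that HNF4 proteins are known to bind in kidney and liver were mostly too low to be tested here, with 13 of 36 tested and 8 at 0 in all libraries. PDZK1, a scaffold of brush border transporters, was lower with both guides. Its signal was 2.56, 5.11 and 3.56 in KO#1 libraries, 19.0, 30.9 and 30.1 in KO#2 libraries and 178, 239 and 457 in sgControl libraries, with no overlap between any pair of groups. PDZK1 had a log2 fold change of -5.87 in KO#1 (SE 0.491, limma adjusted p = 0.000254) and -3.32 in KO#2 (limma adjusted p = 0.00648), though KO#2 missed the threshold when sgControl replicate 3 was left out (limma adjusted p = 0.0529). When KO#2 replicate 1 was left out, the KO#2 value was -3.10 (limma adjusted p = 0.00285). SLC17A1, a phosphate and urate transporter of the proximal tubule, was low in KO#1. It had a signal of 13.0, 26.9 and 24.6 in KO#1 libraries, 178, 252 and 247 in KO#2 libraries and 206, 147 and 209 in sgControl libraries. The KO#1 libraries lay far below all others, and KO#2 and sgControl overlapped, the order that NFIA has without KO#2 replicate 1. SLC17A1 had a log2 fold change of -3.11 in KO#1 (SE 0.391, limma adjusted p = 0.00269) and 0.27 in KO#2 (limma adjusted p = 0.766). The difference between the guides was 3.38 (limma adjusted p = 0.0563), and 3.54 without KO#2 replicate 1 (limma adjusted p = 0.0125). In all, 0 of 13 were higher and 2 of 13 lower in KO#1, where 1.36% and 0.97% of all features were, and 0 were higher and 1 lower in KO#2, where 1.17% and 0.87% were. With KO#2 replicate 1 left out, it was 1 higher and 3 lower in KO#1, beside 5.99% and 6.27%, and 1 higher and 1 lower in KO#2, beside 3.88% and 4.14%. The median was -0.30 in KO#1 and 0.27 in KO#2, and the KO#2 median turned to -0.18 without that library.

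**Figure D5:**
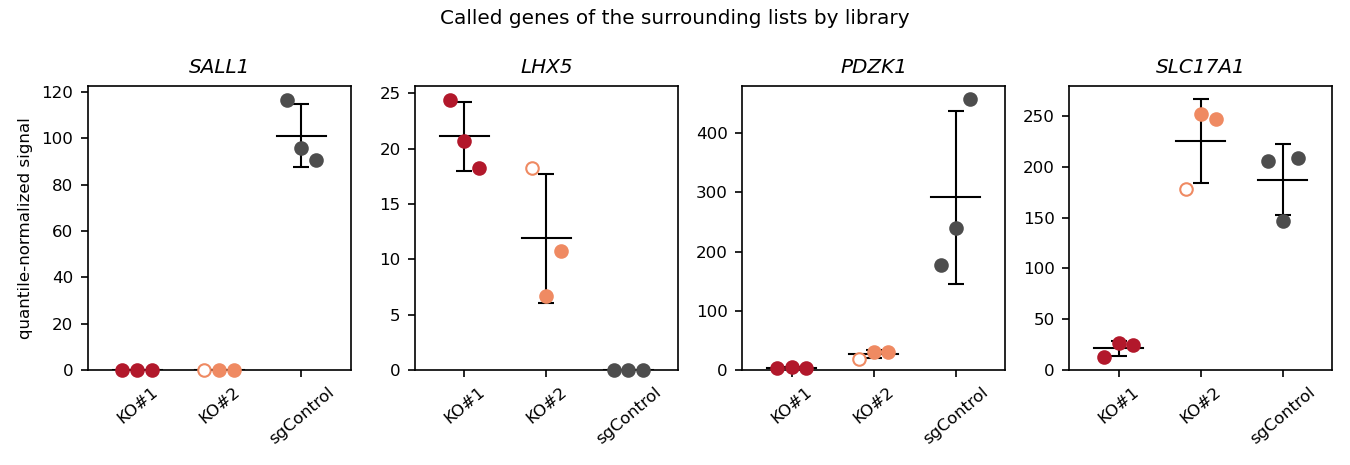
Quantile-normalized signal (vertical axes, no unit) of SALL1, LHX5, PDZK1 and SLC17A1 in KO#1, KO#2 and sgControl libraries; points are libraries, the open point is KO#2 replicate 1, and bars are mean ± SD of 3 libraries. SALL1 is at 0 in the 6 knockout libraries, LHX5 is at 0 in the 3 sgControl libraries, and SLC17A1 is low in the 3 KO#1 libraries.

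Of 40 genes linked to PAX2, PAX8 or WT1 in kidney and thyroid, 13 were tested, and 2 passed, both lower with either guide, beside 0.97% of all features lower in KO#1 and 0.87% in KO#2. FGFR2, a receptor for fibroblast growth factors in the ureteric bud, had a signal of 182, 385 and 320 in KO#1 libraries, 392, 838 and 396 in KO#2 libraries and 2855, 1614 and 3248 in sgControl libraries. BCL2, the inhibitor of apoptosis, had 180, 265 and 247 in KO#1 libraries, 208, 446 and 213 in KO#2 libraries and 1243, 865 and 997 in sgControl libraries. Every knockout library lay below every sgControl library for both genes. For FGFR2 the log2 fold change was -3.12 in KO#1 (limma adjusted p = 0.00441) and -2.28 in KO#2 (limma adjusted p = 0.0246). For BCL2 it was -2.17 in KO#1 (limma adjusted p = 0.0126) and -1.92 in KO#2 (limma adjusted p = 0.026). The KO#2 call of FGFR2 was lost without KO#1 replicate 3, KO#2 replicate 3, sgControl replicate 1 or sgControl replicate 3, at a limma adjusted p of 0.0537 to 0.145. The BCL2 calls were lost without any 1 of 5 libraries in KO#1 (limma adjusted p up to 0.0877) and any 1 of 7 in KO#2 (limma adjusted p up to 0.156). When KO#2 replicate 1 was left out, FGFR2 was at -2.10 (limma adjusted p = 0.0167) and BCL2 at -1.73 (limma adjusted p = 0.0117) in KO#2. The list had medians of -0.49 in KO#1 and -0.47 in KO#2 (-0.74 without that library). Without it, 1 was higher and 4 lower with either guide, beside 5.99% higher and 6.27% lower of all features in KO#1 and 3.88% and 4.14% in KO#2. The higher one was PODXL, the podocyte sialomucin, at 0.87 in KO#1 (limma adjusted p = 0.0273) and 0.98 in KO#2 (limma adjusted p = 0.0346), and was named after its values were seen. CDH16, the kidney cadherin and a known PAX8 target, named after its values were seen, had means of 33.7 in KO#1, 217 in KO#2 and 401 in sgControl cells. It did not pass with all 9 libraries (limma adjusted p = 0.0728 in KO#1 and 0.453 in KO#2). Without KO#2 replicate 1 it passed, at -3.42 in KO#1 (limma adjusted p = 0.0013) and -2.66 in KO#2 (limma adjusted p = 0.0127). Its values in the other settings were not examined.

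Among 28 markers of nephron segments, 10 were tested, and EPCAM, an adhesion molecule of the distal nephron and collecting duct, was the 1 that passed, higher with either guide. Its signal was 43.4, 58.8 and 69.2 in KO#1 libraries, 93.7, 329 and 349 in KO#2 libraries and 4.89 to 5 in sgControl libraries. The 3 groups did not overlap. EPCAM had a log2 fold change of 3.27 in KO#1 (SE 0.535, limma adjusted p = 0.00999) and 5.23 in KO#2 (limma adjusted p = 0.000765). The KO#1 call was lost without KO#1 replicate 2 or 3 or sgControl replicate 1 or 3, at a limma adjusted p of 0.0544 to 0.0676. With KO#2 replicate 1 left out, EPCAM was at 5.84 in KO#2 (limma adjusted p = 1.08e-05). Medians of the list were 0.53 in KO#1 and 0.56 in KO#2 (0.77 without that library). The list had 1 higher and 0 lower of 10 with either guide, beside 1.36% higher in KO#1 and 1.17% in KO#2 of all features. Without that library it had 2 higher and 3 lower in KO#1, beside 5.99% and 6.27%, and 2 higher and 2 lower in KO#2, beside 3.88% and 4.14%. Of 29 cofactors of these factors, such as TLE and LDB1 proteins, 23 were tested and 0 passed with either guide. Over all features 2.33% were called in KO#1 and 2.04% in KO#2. At an unadjusted limma p under 0.05 were 1 of 23 in KO#1 and 4 of 23 in KO#2, beside 11.3% and 13.5% of all features. Most other lists had larger shares at that level, in KO#1 and KO#2 in turn. Segment markers had 4 and 7 of 10, and genes linked to PAX2, PAX8 or WT1 had 5 and 5 of 13. HNF4-bound genes had 3 and 4 of 13, other nephron factors 7 and 6 of 31, and paralogues 5 and 2 of 14. These lists were chosen with earlier results known. When KO#2 replicate 1 was left out, 1 cofactor was higher and 1 lower in KO#1 and 0 passed in KO#2, beside 12.3% and 8.02% of all features. Cofactor medians were -0.06 in KO#1 and -0.49 in KO#2 (-0.34 without that library). Of 26 paralogues, 14 were tested and LHX5 was the 1 that passed, beside 1.36% higher in KO#1 and 1.17% in KO#2 over all features, with list medians of -0.31 in KO#1 and -0.37 in KO#2 (-0.24 without KO#2 replicate 1). Without that library the paralogues had 1 higher and 4 lower in KO#1, beside 5.99% and 6.27%, and 1 higher and 2 lower in KO#2, beside 3.88% and 4.14%. Of the markers of other cell types, 3 were tested and 0 passed, also at an unadjusted limma p under 0.05.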

How the data were processed

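Per the labels' protocols, RNA from ACHN cells was made into directional libraries and read as paired ends of 36 bases. The deposited values are a signal per gene name that the authors obtained from total counts by quantile normalization, per the file headers and title. The submitters' processing notes list the build mm10, a mouse build, although the names are human, so no coordinates are taken from the table. The aligner, the counter and its strand setting are unstated there.

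Values were tested as log2(signal + 1), over 12985 features with a mean signal of at least 10, with limma 3.58.1 in R 4.3.3: 1 linear model of 3 groups over 9 libraries, a trend of variance on mean, two-sided tests, Benjamini-Hochberg adjustment over all features and a threshold of 0.05. Fold changes on this scale understate changes of low genes. The 8 members and the gene lists were chosen with earlier results of these data known. The genes named are the members, ELOVL5, markers of cell types and up to 4 higher and 4 lower called genes per list. Also named are the 3 genes most correlated with each tested member. Others are marked in the text.

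Quantile normalization gives features of equal reads ascending values in table order, and the steps between these runs give back the reads. It was worked out with the values in view and tested on simulated data. Read and Poisson values cover counting error only. Sequences were searched in GENCODE v29 transcripts and in RefSeq promoters with Python 3.11.15. Alternatives were pseudocounts of 0.25 and 8, no filter or a mean of at least 50, further scaling, only the 2 groups compared, library weights, no variance trend, each library left out, and the median of 20 neighbours on each side removed. A correction for GC content was chosen after seeing the data. No sample column was left unused.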

Additional observations from a re-analysis of the deposited data

How the results depend on the processing

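No paired analysis was possible because the labels give no replicate numbers, and those used name libraries in sample order. Of 375 log2 fold changes of the 5 members under alternatives, 339 kept their sign and side of the threshold, 15 newly passed and 21 changed sign; the cause was not tested. The number of members called in KO#1 against sgControl went to 2 with only the groups compared and 2 with library weights. In these settings 1883 and 2765 of the 12985 features were called. It was 1 with the neighbour median removed, beside 432 features, and 1 with the GC correction, beside 1007 features. For the mean of both guides it was 2 with library weights, 1 with the neighbour median removed and 1 with the GC correction. Beside these, 2808, 579 and 1364 features were called. For KO#2 against KO#1 it was 1 with library weights, beside 24 features. Leaving out 1 library gave 0 to 1 members called in KO#1, in the mean and between the guides, and 0 in KO#2 against sgControl and in both guides alike.

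Over all features, 303 were called in KO#1, 265 in KO#2, 403 for the mean, 0 between the guides and 179 alike with both guides. With a mean of at least 50 these were 141 in KO#1, 137 in KO#2, 201 for the mean and 86 alike, and with only the groups compared 1883 in KO#1, 79 in KO#2 and 76 alike. Library weights gave 2765 in KO#1, 1293 in KO#2, 2808 for the mean, 24 between the guides and 1125 alike. The GC correction gave 1007, 971, 1364, 4 and 626 in that order. Between the guides, 4 were called at a pseudocount of 8 and 2 without a variance trend. Leaving out 1 library gave 96 to 1592 in KO#1, 95 to 1042 in KO#2, 155 to 1897 for the mean, 0 to 13 between the guides and 66 to 798 alike, each highest without KO#2 replicate 1.

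Log2 fold changes that missed the threshold and changed sign were these. When 1 library was left out, KO#2 against sgControl ran from -0.98 to 0.077 for PAX2, -0.52 to 0.049 for PAX8, -1.56 to 0.36 for HNF4G and -0.98 to 0.12 for NFIA, with the positive values of PAX2 and PAX8 without KO#2 replicate 2 and those of HNF4G and NFIA without replicate 1. KO#2 against KO#1 ran from -0.34 to 0.73 for PAX2, -0.78 to 1.14 for HNF4G and -0.39 to 0.72 for LHX1. With library weights HNF4G was 0.16 and NFIA 0.13 in KO#2 against sgControl, and HNF4G was 0.78 between the guides. With the neighbour median removed, PAX8 was 0.11 and SLC17A1 -0.068 in KO#2 against sgControl, and between the guides PAX2 was -0.029, HNF4G 0.34 and LHX1 -0.013. With the GC correction, PAX2 was -0.30, PAX8 -0.031, HNF4G 0.22 and LHX1 -0.35 between the guides. Also between the guides, HNF4G was 0.39 without KO#1 replicate 3, and LHX1 was -0.15 without KO#1 replicate 2 and -0.11 without KO#2 replicate 3. LHX5 in KO#2 missed the threshold at a pseudocount of 8 (limma adjusted p = 0.0921) and with only the groups compared (limma adjusted p = 0.155). With only the groups compared, FGFR2 and BCL2 in KO#2 also missed it (limma adjusted p = 0.0877 and 0.128). Depth limits the values of KO#2 replicate 1, which rest on 3 reads for HNF4G, 8 for NFIA and 4 each for LHX5 and PDZK1.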
